A study of Homo sapiens with 36 samples.

Results

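The replication-dependent histone genes are the families that supply the linker histone H1 and the core histones H2A, H2B, H3 and H4 while DNA is copied. Members were the protein-coding genes whose symbol fully matched H1-1 to H1-5, or H2AC, H2BC, H3C or H4C followed by a number, without use of any measured value. The rule gave 68 of 59041 genes, with 5 for H1, 17 for H2A, 18 for H2B, 13 for H3 and 15 for H4. RNA was sequenced from HL60, MOLM13 and OCIAML3, established lines of human acute myeloid leukemia (AML), each labelled WT for genotype. For 24 h, cells of every line were kept in cytarabine at 0.1 µM, in daunorubicin at 0.02 µM, in the combination of both at these doses, or in DMSO, the solvent given to the controls. Each of the 12 groups held 3 libraries labelled as biological replicates, 36 in all. Each line is 1 culture model, OCIAML3 was grown in another medium (alpha-MEM) than the other lines (RPMI), and the sources do not say whether replicates came from separate cultures, so the p-values here rest on the spread among the 3 libraries of a group, which may be technical.

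Most mRNAs carry introns and a poly(A) tail, but replication-dependent histone mRNAs are intronless and end in a short stem-loop that the stem-loop binding protein SLBP holds from processing to translation. Their genes lie in clusters and are transcribed in S phase with the help of NPAT, a coactivator switched on by cyclin E and CDK2, and the transcripts are normally degraded soon after DNA synthesis stops. Cytarabine is a cytidine analog that is built into DNA and stalls replication. Daunorubicin, of the anthracycline class, slips between base pairs and traps topoisomerase II on cut DNA.

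The stem-loop is shown first because it is the element that sets these transcripts apart from the other mRNAs in the libraries. A stem of 6 bases, a loop of 4 and the returning stem were found after the stop codon of 66 of the 68 shortest single-exon coding transcripts, in 8 distinct versions (GENCODE v44, GRCh38). The capitals mark the 16 bases of stem and loop, the coordinates refer to these bases, and the sequences run 5′ to 3′ on the gene's strand.
H1-2, chr6:26055744-26055759, minus strand: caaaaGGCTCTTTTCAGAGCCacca
H2AC6, chr6:26124669-26124684, plus strand: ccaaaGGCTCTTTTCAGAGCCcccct
H2AC20, chr1:149887391-149887406, plus strand: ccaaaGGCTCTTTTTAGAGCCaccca
H2BC12, chr6:27146366-27146381, minus strand: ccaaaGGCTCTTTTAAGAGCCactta
H3C6, chr6:26225596-26225611, plus strand: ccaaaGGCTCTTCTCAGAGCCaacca
H4C14, chr1:149833032-149833047, plus strand: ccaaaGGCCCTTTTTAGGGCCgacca

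The H1-2 and H2AC6 version was shared by 40 members, and the H2BC12 version by 8. The H4C14 version was found in 4 H4 genes, H4C9, H4C12, H4C14 and H4C15, while 10 other H4 genes shared a further version, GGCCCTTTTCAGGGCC. H2AC20 and H3C6 each had a version of their own, as did H2BC10 and H4C13. H2AC11 and H2AC15 had no exact match to the pattern. The element began a median of 38 bases after the stop codon, with a range of 25 to 70, and a median of 5 bases separated it from the annotated end. In H2BC21 the annotated transcript ran on for 1729 bases past the element.

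Of the members, 54 lay on chromosome 6 between positions 25723397 and 27893891, 13 on chromosome 1 and 1 (H4C16) on chromosome 12. On chromosome 1, 11 members lay between 149782689 and 149887965 and 2 between 228434777 and 228463104. Promoters were available from RefSeq (GRCh38.p14) for 63 members and covered 250 bases before to 50 bases after the start. TATAAA, searched on both strands, was present in 66.7% of the members' promoters and in 12% of all 27305 promoters in the table. CCAAT was present in 84.1% of members and 35.7% of all promoters, and ATGCAAA in 41.3% of members and 4.51% of all. These motifs were divided by type, since CCAAT was found in 100% of the H1, H2A, H2B and H3 promoters and 23.1% of the H4 promoters, and ATGCAAA in 68.8% of H2A, 77.8% of H2B, 9.09% of H3 and none of the H1 or H4 promoters. The 120 bases before the start of 3 members are printed because these genes behaved differently in HL60, as given further on. The capitals mark the searched motifs on either strand, and the H4C14 stretch holds none of them.
H2AC6, chr6:26124052-26124171, plus strand: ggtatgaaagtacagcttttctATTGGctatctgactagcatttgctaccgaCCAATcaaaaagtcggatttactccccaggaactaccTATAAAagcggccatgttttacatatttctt
H2BC12, chr6:27146859-27146978, minus strand: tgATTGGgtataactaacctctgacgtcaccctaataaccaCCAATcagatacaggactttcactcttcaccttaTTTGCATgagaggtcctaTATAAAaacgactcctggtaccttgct
H4C14, chr1:149832537-149832656, plus strand: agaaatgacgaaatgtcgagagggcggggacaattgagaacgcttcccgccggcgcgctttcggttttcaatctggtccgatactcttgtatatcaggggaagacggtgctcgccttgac

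Libraries held 25067734 to 47322144 estimated counts, of which 605 to 10119 fell on the members. The kind of RNA selection before library construction is not given in the sources used here beyond the term total RNA, and the libraries did not keep strand. Levels within a gene are given as counts-per-million (CPM) values, with library sizes scaled by the trimmed mean of M-values (TMM), and before that scaling the members held 20.0 to 375 CPM. No read fell on 5 members, H2AC1, H2BC1, H2BC10, H3C8 and H4C7. After the filter on low counts 37 members were tested in HL60, 42 in MOLM13 and 34 in OCIAML3, with 26 tested in all lines and 48 in at least 1. The filter needs enough reads in as few libraries as 1 group holds, so a member could pass only through the group where it was highest. Such members enter the counts and medians over tested members, and the direction of their change depends on which group that was. A gene was called when edgeR's quasi-likelihood test gave a Benjamini-Hochberg adjusted p under 0.05 over all genes tested and the log2 fold change was above 1 or below -1.

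Among the OCIAML3 libraries, 2 stood apart from their groups. Over 195 genes outside the family that separated daunorubicin from DMSO, on a scale of 1 for the daunorubicin mean and 0 for the DMSO mean, the library labelled combination replicate 3 lay at -0.0256, against 1.28 and 1.06 for the other combination libraries. Cytarabine replicate 3 lay at 0.540, against 0.121 and 0.0618 for the other cytarabine libraries. The daunorubicin libraries, which helped to choose these genes, lay at 1.33, 1.05 and 0.628, and the DMSO libraries at 0.0777, -0.0165 and -0.0613. The tests of the OCIAML3 members are therefore given with all libraries and without these 2, which leaves 2 cytarabine and 2 combination libraries.

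In DMSO the members were compared per transcript length, in transcripts-per-million (TPM) values. Their summed level was 271 ± 16.9 TPM in HL60, 156 ± 12.1 TPM in MOLM13 and 190.3 ± 8.84 TPM in OCIAML3 (SD, n = 3 each), and the 3 DMSO ranges, 259.9 to 291, 147 to 169.5 and 184 to 200.4 TPM, did not overlap. A few genes carried much of it, since the 5 highest members made up 43.6% of the sum in HL60, 46.7% in MOLM13 and 50.9% in OCIAML3. H2BC12 was among the 2 highest in every line, at 34.1 ± 3.85 TPM in HL60, 40.3 ± 7.87 TPM in MOLM13 and 22.5 ± 2.49 TPM in OCIAML3. The highest member of HL60 was H4C11, at 34.8 ± 11.3 TPM, which did not differ from H2BC12 beyond its spread, and the highest of OCIAML3 was H2AC18, at 32.3 ± 4.95 TPM. In DMSO 17, 10 and 12 members were at 0 in all libraries of HL60, MOLM13 and OCIAML3.

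The summed level of all members lay below DMSO in treated HL60 and above DMSO in treated MOLM13. In HL60 the sum was 36.3, 25.7 and 23.9 CPM with cytarabine, 22.7, 21.2 and 21.7 CPM with daunorubicin and 55.1, 44.1 and 21.2 CPM with the combination, against 82.6, 61.0 and 66.2 CPM in DMSO. Every treated HL60 library lay below every DMSO library, and the ratio of the means was 0.409 for cytarabine, 0.313 for daunorubicin and 0.574 for the combination. In MOLM13 the sum was 81.6, 70.3 and 64.4 CPM with cytarabine, 218, 330.2 and 157 CPM with daunorubicin and 162, 372 and 283 CPM with the combination, against 51.2, 49.3 and 49.1 CPM in DMSO. Every treated MOLM13 library lay above every DMSO library, with ratios of 1.45, 4.72 and 5.46. In OCIAML3 the sum was 51.7, 48.5 and 74.9 CPM with cytarabine, 181, 120.0 and 78.6 CPM with daunorubicin and 250.3, 150.4 and 38.5 CPM with the combination, against 58.3, 50.6 and 47.3 CPM in DMSO. The OCIAML3 daunorubicin libraries lay above DMSO, at a ratio of 2.43. The cytarabine and combination libraries overlapped DMSO, and without the 2 libraries that stood apart the ratios were 0.961 for cytarabine, still overlapping, and 3.85 for the combination, without overlap. These sums have no test, because a sum over a chosen family gets none. In bulk RNA, fewer cells that make histone mRNA and less histone mRNA per cell cannot be told apart.

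**Figure D1:**
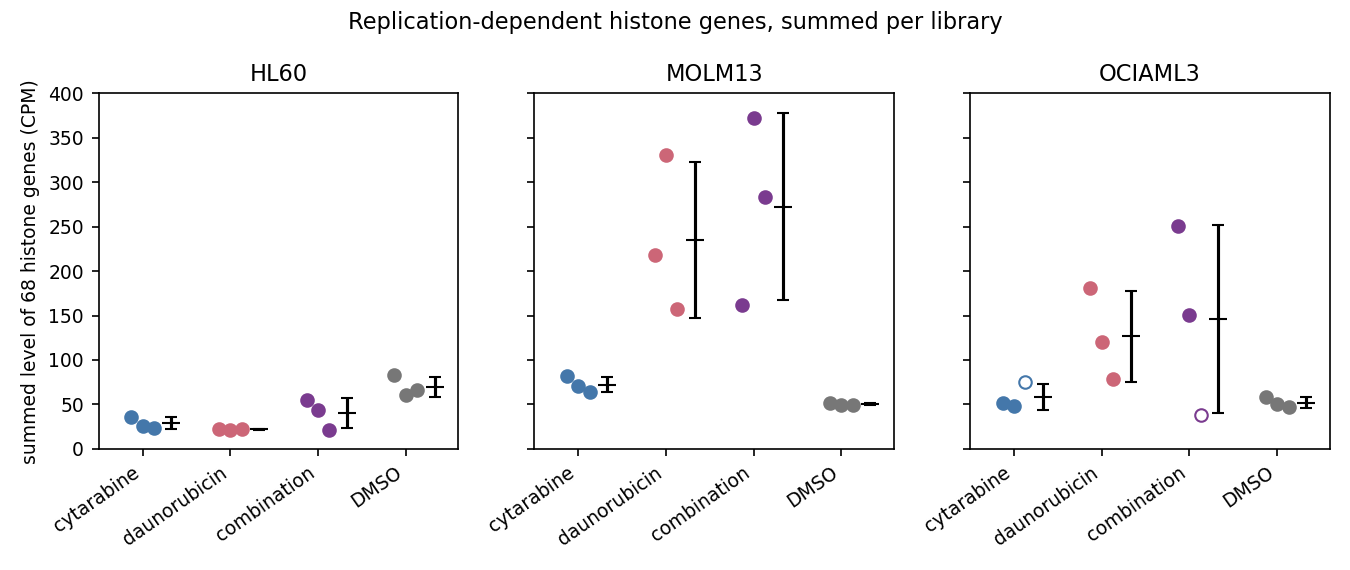
Summed level of the 68 replication-dependent histone genes in each library (CPM), with cytarabine, daunorubicin, combination and DMSO from left to right in each cell line; each point is a library, black bars are the mean ± SD of 3 libraries, and open circles are the OCIAML3 libraries that stood apart. All 9 treated HL60 libraries lie below the DMSO libraries of that line and all 9 treated MOLM13 libraries above theirs.

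The types took part to different extents. In HL60 the log2 ratio of the group means with cytarabine was -1.92 for the H2B sum, -1.33 for H1, -1.14 for H2A, -0.95 for H4 and -0.80 for H3. With daunorubicin these ratios were -1.95 for H2B, -2.13 for H1, -1.57 for H2A, -1.35 for H4 and -1.23 for H3. With the combination they were -1.52 for H2B and -0.88 for H2A, while the H1 sum, at -1.13, the H3 sum, at -0.50, and the H4 sum, at -0.02, overlapped DMSO. In MOLM13 the sums of the 4 core types lay above the DMSO range with each treatment. Daunorubicin gave 2.59 for H2A, 2.38 for H2B, 2.08 for H3 and 1.71 for H4, and the combination 2.79, 2.57, 2.27 and 2.15 in the same order of types. The linker histone sum of MOLM13 was 1.22 with daunorubicin, 1.31 with the combination and -0.41 with cytarabine, and overlapped DMSO with both single drugs. In OCIAML3 daunorubicin gave 1.32 for H2A, 1.43 for H2B, 1.37 for H4, 0.52 for H3 and 0.38 for H1, of which the H3 and H1 sums overlapped DMSO. The combination gave 1.60 for H2A, 1.59 for H2B, 1.54 for H4, 0.69 for H3 and 0.57 for H1 with all libraries, every type overlapping DMSO, and 2.06, 2.06, 1.99, 1.02 and 0.90 without the 2, with no overlap.

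By single genes, the called members of HL60 were nearly all lower. Cytarabine lowered 14 of the 37 tested members and raised none (edgeR), against 3.12% lower and 13.7% higher among all 15608 genes tested. Daunorubicin lowered 16 and raised none, against 0.538% lower and 6.76% higher among all genes. The combination lowered 13 and raised 1, H4C14, against 6.29% lower and 17.0% higher. The median log2 fold change over tested members was -1.26, -1.69 and -1.42 in the same order of treatments, and over all genes the median in each of the 9 comparisons with DMSO lay between 0.00 and 0.07. H2B held the largest number with cytarabine, with 7 of 10 tested genes lower, against 3 of 8 for H2A, 2 of 7 for H3, 1 of 10 for H4 and 1 of 2 for H1. The daunorubicin count was 8 without daunorubicin replicate 1, 8 without daunorubicin replicate 2 and 10 without DMSO replicate 1.

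The called members of MOLM13 were mostly higher, and nearly all calls came with daunorubicin or the combination. Daunorubicin raised 22 of 42 tested members and lowered 4, H1-5, H2AC20, H2BC9 and H3C2, against 11.3% higher and 5.71% lower among all 16184 genes tested (edgeR). The combination raised 24 and lowered 1, H2AC20, against 11.8% and 5.61%. Cytarabine raised 1, H2AC15, and lowered 1, H2AC20, against 7.11% and 1.03%, a count that was 0 without DMSO replicate 1, 1 without cytarabine replicate 3, and 4 without combination replicate 1 or daunorubicin replicate 3. The median log2 fold change was 0.34 for cytarabine, 1.78 for daunorubicin and 2.06 for the combination. In the direct contrast of daunorubicin with cytarabine 17 members were higher and 1 lower in MOLM13, against 1.60% and 3.65% of all genes. The largest rise in this contrast at a level of at least 1 CPM was that of H2BC4, at 2.63 ± 0.38 (SE, edgeR adjusted p = 0.00204). In HL60 the same contrast called 0 members by edgeR, where 0.609% and 3.28% of all genes were higher and lower. At an unadjusted p under 0.05 there were 3 of the 37 members, against 31.5% of all genes, and DESeq2 called 1, against 4.31%.

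With all OCIAML3 libraries, edgeR called 0 members and 0% of all 16650 genes in each comparison. At an unadjusted p under 0.05 there were 2 of 34 members for cytarabine and 12 each for daunorubicin and the combination, against 1.53%, 30.5% and 23.3% of all genes. By DESeq2 the calls were 0, 1 and 0, against 0.00601%, 2.07% and 0.0240% of all genes. Without the 2 libraries that stood apart, daunorubicin raised 7 of 36 tested members and lowered 3, H1-4, H2AC20 and H4C1, against 3.61% higher and 0.539% lower among 16891 genes. The combination then raised 15 and lowered 5, H1-4, H2AC20, H2BC9, H3C15 and H4C1, against 5.90% and 1.96%, and cytarabine called no member and 0% of all genes. The combination count was 10 when combination replicate 1 was also left out, which leaves 1 combination library assumed to vary like the other groups. Daunorubicin against cytarabine then had 8 members higher and 2 lower, against 2.76% and 0.355%, and 0 in both directions when cytarabine replicate 1 was also left out, which leaves 1 cytarabine library assumed to vary like the other groups.

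Among the linker histones, which bind the DNA entering and leaving the nucleosome, H1-2 had the most reads. In HL60, H1-2 was at 3.88, 2.21 and 2.11 CPM with cytarabine, 1.52, 2.07 and 1.72 CPM with daunorubicin and 5.37, 3.90 and 1.64 CPM with the combination, against 10.1, 6.02 and 5.08 CPM in DMSO. It fell with cytarabine (log2 fold change -1.37 ± 0.40 SE, edgeR adjusted p = 0.0124) and with daunorubicin (-1.99 ± 0.41, edgeR adjusted p = 0.00482), and the combination, with one library inside the DMSO range, gave -0.95 ± 0.39 (edgeR adjusted p = 0.0542). In MOLM13, H1-2 was at 4.92, 4.61 and 3.31 CPM with cytarabine, 14.6, 21.6 and 9.89 CPM with daunorubicin and 9.46, 24.3 and 13.9 CPM with the combination, against 5.83, 3.10 and 4.17 CPM in DMSO. All daunorubicin and combination libraries lay above DMSO, and H1-2 rose by 1.82 ± 0.38 (edgeR adjusted p = 0.00190) and 1.86 ± 0.38 (edgeR adjusted p = 0.00163). In OCIAML3 it was at 2.94, 1.87 and 3.07 CPM with cytarabine, 7.87, 4.51 and 2.13 CPM with daunorubicin and 10.1, 4.35 and 1.77 CPM with the combination, against 3.22, 2.39 and 2.55 CPM in DMSO. With all libraries the combination gave 0.99 ± 0.57 (edgeR adjusted p = 0.280) and daunorubicin 0.83 ± 0.57 (edgeR adjusted p = 0.321). Without those that stood apart the combination gave 1.41 ± 0.48 (edgeR adjusted p = 0.0375) and daunorubicin 0.83 ± 0.44 (edgeR adjusted p = 0.180).

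H1-4 went the other way in OCIAML3. It was at 0.801, 0.593 and 0.413 CPM with cytarabine, 0.243, 0.277 and 0.525 CPM with daunorubicin and 0.314, 0.168 and 0.707 CPM with the combination, against 1.17, 0.959 and 1.33 CPM in DMSO. All treated libraries lay below DMSO, daunorubicin and the combination gave -1.72 and -1.51 with all libraries (edgeR adjusted p = 0.122 and 0.209), and without the 2 libraries H1-4 fell by 1.72 with daunorubicin (SE 0.37, edgeR adjusted p = 0.00788) and by 2.26 with the combination (SE 0.44, edgeR adjusted p = 0.00295). In HL60, H1-4 was at 2.64, 0.280 and 3.42 CPM with cytarabine, 1.92, 0.369 and 0.717 CPM with daunorubicin and 4.09, 1.19 and 0.409 CPM with the combination, against 10.2, 2.40 and 2.68 CPM in DMSO. The wide DMSO spread left it uncalled (edgeR adjusted p = 0.261, 0.0867 and 0.194), but with the replicate number as a block it was called with daunorubicin (-2.34 ± 0.62, edgeR adjusted p = 0.00995) and with the combination (-1.41 ± 0.58, edgeR adjusted p = 0.0499). In MOLM13, H1-4 was at 0.622, 0.463 and 0.603 CPM with cytarabine, 0.653, 0.832 and 0.419 CPM with daunorubicin and 1.33, 0.588 and 0.650 CPM with the combination, against 3.45, 0.428 and 0.874 CPM in DMSO, which overlapped in every comparison.

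The H2A genes encode the core histone that pairs with H2B. H2AC6 was raised over a wide range in MOLM13, at 60.5, 94.3 and 39.8 CPM with daunorubicin and 32.6, 110.4 and 81.2 CPM with the combination, against 4.48, 6.95 and 7.97 CPM in DMSO. The groups were far apart, with rises of 3.32 ± 0.44 (edgeR adjusted p = 9.05e-05) and 3.53 ± 0.44 (edgeR adjusted p = 6.76e-05). With cytarabine MOLM13 held 13.5, 12.1 and 12.1 CPM, all above DMSO, at 0.96 ± 0.42 (edgeR adjusted p = 0.0995). In HL60, H2AC6 was at 1.01, 1.46 and 0.497 CPM with cytarabine, 0.508, 0.369 and 0.394 CPM with daunorubicin and 2.11, 1.27 and 0.189 CPM with the combination, against 2.33, 2.33 and 1.82 CPM in DMSO. It fell with daunorubicin by 2.34 on the log2 scale (SE 0.63, edgeR adjusted p = 0.0186). Cytarabine gave -1.12 ± 0.58 (edgeR adjusted p = 0.131), which the replicate block turned into a call (-1.23 ± 0.47, edgeR adjusted p = 0.0395). In OCIAML3 it was at 6.79, 5.67 and 12.6 CPM with cytarabine, 28.6, 18.7 and 12.8 CPM with daunorubicin and 48.2, 27.6 and 4.53 CPM with the combination, against 7.07, 6.06 and 4.51 CPM in DMSO. Daunorubicin gave 1.77 ± 0.65 with all libraries (edgeR adjusted p = 0.131) and 1.76 ± 0.31 without the 2 (edgeR adjusted p = 0.00370), and the combination 2.18 ± 0.66 with all (edgeR adjusted p = 0.209) and 2.68 ± 0.33 without them (edgeR adjusted p = 0.000601).

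H2AC18, the highest H2A gene of OCIAML3, was at 6.68, 7.30 and 11.2 CPM with cytarabine, 34.3, 24.0 and 12.7 CPM with daunorubicin and 46.0, 27.7 and 5.14 CPM with the combination there, against 9.15, 8.21 and 6.30 CPM in DMSO. Daunorubicin and the combination gave 1.58 and 1.73 with all libraries (edgeR adjusted p = 0.133 and 0.209). With the 2 libraries left out it rose by 1.58 ± 0.32 (edgeR adjusted p = 0.00646) and 2.22 ± 0.35 (edgeR adjusted p = 0.00115). In MOLM13 it was at 5.71, 3.76 and 4.45 CPM with cytarabine, 9.36, 14.6 and 8.09 CPM with daunorubicin and between 9.71 and 13.4 CPM with the combination, against 2.24, 3.19 and 2.56 CPM in DMSO. Every treated library there was higher than DMSO, and the daunorubicin and combination rises were 2.00 ± 0.25 (edgeR adjusted p = 6.84e-05) and 2.13 ± 0.25 (edgeR adjusted p = 5.01e-05). In HL60 it was at 3.29, 2.49 and 1.67 CPM with cytarabine, 1.23, 1.67 and 1.29 CPM with daunorubicin and 4.38, 4.71 and 2.61 CPM with the combination, against 2.94, 2.85 and 4.02 CPM in DMSO. Only daunorubicin was called of these, at -1.22 ± 0.31 (edgeR adjusted p = 0.0152). H2AC13, at under 1 CPM in HL60, fell there by 2.29 with cytarabine and 1.89 with the combination (edgeR adjusted p = 0.00493 and 0.00970), was also called lower with daunorubicin (edgeR adjusted p = 0.0337), and rose in MOLM13 by 2.08 with daunorubicin and 2.02 with the combination (edgeR adjusted p = 0.00211 and 0.00250).

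H2AC20 was the one H2A gene called lower in all lines, in OCIAML3 only without the 2 libraries. In MOLM13 it was at 0.487, 0.572 and 0.301 CPM with cytarabine, 0.290, 0.198 and 0.209 CPM with daunorubicin and 0.279, 0.367 and 0.614 CPM with the combination, against 1.45, 1.45 and 0.807 CPM in DMSO. In HL60 it was at 1.34, 1.12 and 0.878 CPM with cytarabine, 1.45, 0.823 and 1.11 CPM with daunorubicin and 1.23, 0.785 and 0.755 CPM with the combination, against 3.36, 2.09 and 2.61 CPM in DMSO. In both lines no treated library reached the DMSO range, and all 6 comparisons were called, between -1.42 and -2.38 in MOLM13 and between -1.25 and -1.53 in HL60 (edgeR adjusted p from 0.00078 to 0.0160). In OCIAML3 it was at 2.56, 2.67 and 1.45 CPM with cytarabine, 0.624, 1.11 and 1.12 CPM with daunorubicin and 0.692, 1.06 and 2.32 CPM with the combination, against 2.77, 3.39 and 1.82 CPM in DMSO. Daunorubicin and the combination gave -1.48 and -0.96 there with all libraries (edgeR adjusted p = 0.122 and 0.213), and without the 2 it fell by 1.48 (SE 0.30, edgeR adjusted p = 0.00614) and 1.60 (SE 0.34, edgeR adjusted p = 0.00454) with daunorubicin and the combination. H2AC20 has the version of the stem-loop that no other member shared. H2AC7 had 0.436, 0.436 and 0.377 CPM with daunorubicin and 1.05, 1.62 and 1.48 CPM with the combination in MOLM13, against 0, 0 and 0.269 CPM in DMSO, and the daunorubicin call (2.16 ± 0.85, edgeR adjusted p = 0.0498) was lost with the replicate block (edgeR adjusted p = 0.0570).

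The H2B genes had the clearest split between the lines. H2BC12 was at 2.28, 1.65 and 2.16 CPM with cytarabine, 2.14, 1.45 and 3.05 CPM with daunorubicin and 1.82, 1.72 and 1.98 CPM with the combination in HL60, against 11.8, 8.38 and 9.79 CPM in DMSO. All 9 treated libraries were below every DMSO library, by 2.30 (SE 0.27, edgeR adjusted p = 2.98e-05), 2.18 (SE 0.27, edgeR adjusted p = 0.000204) and 2.44 (SE 0.27, edgeR adjusted p = 9.34e-06) on the log2 scale. MOLM13 libraries held it at 17.8, 22.0 and 16.0 CPM with cytarabine, 53.6, 90.2 and 39.3 CPM with daunorubicin and 44.0, 100.1 and 70.1 CPM with the combination, against 8.89, 13.4 and 10.3 CPM in DMSO. All treated libraries were above DMSO, with 0.77 ± 0.33 for cytarabine (edgeR adjusted p = 0.0949) and rises of 2.49 ± 0.34 (edgeR adjusted p = 0.000125) and 2.71 ± 0.35 (edgeR adjusted p = 7.84e-05) for daunorubicin and the combination. OCIAML3 libraries held it at 5.38, 5.22 and 9.95 CPM with cytarabine, 25.4, 17.1 and 10.0 CPM with daunorubicin and between 3.84 and 29.3 CPM with the combination, against 5.96, 4.87 and 4.68 CPM in DMSO. With all libraries daunorubicin and the combination gave 1.76 and 1.75 (edgeR adjusted p = 0.124 and 0.209). Without the 2 libraries the rises were 1.76 ± 0.30 (edgeR adjusted p = 0.00334) and 2.22 ± 0.32 (edgeR adjusted p = 0.000895). The combination library that stood apart was the lowest of all.

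H2BC5 followed the same pattern. In HL60 it was at 0.587, 0.933 and 0.380 CPM with cytarabine, 0.979, 0.681 and 1.11 CPM with daunorubicin and 0.748, 0.887 and 0.755 CPM with the combination, against 2.71, 2.19 and 2.33 CPM in DMSO, and fell by 1.92, 1.39 and 1.59 (edgeR adjusted p = 0.0006, 0.0119 and 0.00138). MOLM13 libraries held it at 2.95, 2.56 and 2.00 CPM with cytarabine, 12.2, 18.7 and 8.55 CPM with daunorubicin and 6.70, 21.7 and 13.9 CPM with the combination, against 0.621, 1.58 and 1.65 CPM in DMSO. The groups did not overlap, and it rose by 3.35 ± 0.48 (edgeR adjusted p = 0.000161) and 3.45 ± 0.48 (edgeR adjusted p = 0.000141) with daunorubicin and the combination. OCIAML3 libraries held it at 2.67, 2.94 and 5.17 CPM with cytarabine, 12.6, 7.52 and 4.41 CPM with daunorubicin and 17.1, 9.77 and 1.66 CPM with the combination, against 3.26, 2.46 and 1.66 CPM in DMSO. Both groups were uncalled with all libraries, at 1.73 and 1.94 (edgeR adjusted p = 0.135 and 0.209). With the 2 libraries left out it rose by 1.73 ± 0.38 (edgeR adjusted p = 0.00864) and 2.44 ± 0.41 (edgeR adjusted p = 0.00148).

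H2BC4 was called lower in HL60 with all treatments and higher in MOLM13 with daunorubicin and the combination. In MOLM13 it was at 5.81, 7.73 and 3.10 CPM with daunorubicin and 4.96, 8.16 and 5.60 CPM with the combination, against 1.48, 1.22 and 1.18 CPM in DMSO (2.10 ± 0.37 and 2.27 ± 0.37, edgeR adjusted p = 0.000659 and 0.000401). In HL60 it was at 0.196, 0.373 and 0.0878 CPM with cytarabine, 0.254, 0.397 and 0.394 CPM with daunorubicin and 0.695, 0.659 and 0.126 CPM with the combination, against 1.99, 1.70 and 1.51 CPM in DMSO. The annotated H2BC4 overlaps 4 genes, among them HFE, H4C3 and H1-6, and 3 of the 4 lie on the opposite strand. Without strand, reads of H2BC4 and of the genes opposite it cannot be told apart where they overlap. In all, 30 of the 68 members overlap another annotated gene. Among the members given by library, H2AC6 and H1-4 overlap 1 gene each, H3C6 and H2BC18 2 each, H2AC7 and H2BC6 3 each, and H2BC5 4. The genes that H2BC18 overlaps include the protein-coding FCGR1A. H1-2, H2AC18, H2AC20, H2BC12 and H4C14 overlap none. The part of these overlaps in the reads was not tested. H2BC21, which overlaps none, had 14.1, 8.85 and 5.39 CPM with daunorubicin and 20.0, 12.2 and 1.90 CPM with the combination in OCIAML3, against 3.35, 2.20 and 2.79 CPM in DMSO. It gave 1.77 and 2.03 there with all libraries (edgeR adjusted p = 0.131 and 0.209), and without the 2 libraries rose by 1.77 ± 0.34 (edgeR adjusted p = 0.00529) and 2.54 ± 0.36 (edgeR adjusted p = 0.000896). In MOLM13, H2BC21 rose by 2.30 ± 0.40 (edgeR adjusted p = 0.000583) and 2.44 ± 0.40 (edgeR adjusted p = 0.000389), and in HL60 it fell with daunorubicin by 2.31 (SE 0.75, edgeR adjusted p = 0.0431).

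Further H2B genes were called in 1 line, which does not show that the lines differed. H2BC17 in HL60 was at 0.358, 0.466 and 0.176 CPM with cytarabine, 0.0363, 0.284 and 0.287 CPM with daunorubicin and 0.107, 0.279 and 0.157 CPM with the combination, against 1.45, 0.974 and 1.75 CPM in DMSO, and passed the count filter in no other line. H2BC18 in HL60 was at 0, 0.0622 and 0.293 CPM with cytarabine, 0.218, 0.0284 and 0.323 CPM with daunorubicin and 0.214, 0.152 and 0.0315 CPM with the combination, against 1.49, 1.32 and 1.13 CPM in DMSO, and was called in no other line. Both genes were lower in every treated HL60 library than in DMSO, and all 6 comparisons were called, from -2.05 to -3.39 (edgeR adjusted p from 0.00103 to 0.0263). H2BC6 in MOLM13 was at 0.460, 0.327 and 0.452 CPM with cytarabine, 1.38, 3.33 and 1.30 CPM with daunorubicin and 0.837, 2.20 and 1.48 CPM with the combination, against 0, 0.132 and 0.168 CPM in DMSO, and rose by 4.26 ± 0.70 (edgeR adjusted p = 0.000392) and 3.84 ± 0.70 (edgeR adjusted p = 0.000782). In OCIAML3, H2BC6 gave 0.97 ± 1.24 and 1.59 ± 1.18 with all libraries (edgeR adjusted p = 0.609 and 0.386).

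**Figure D2:**
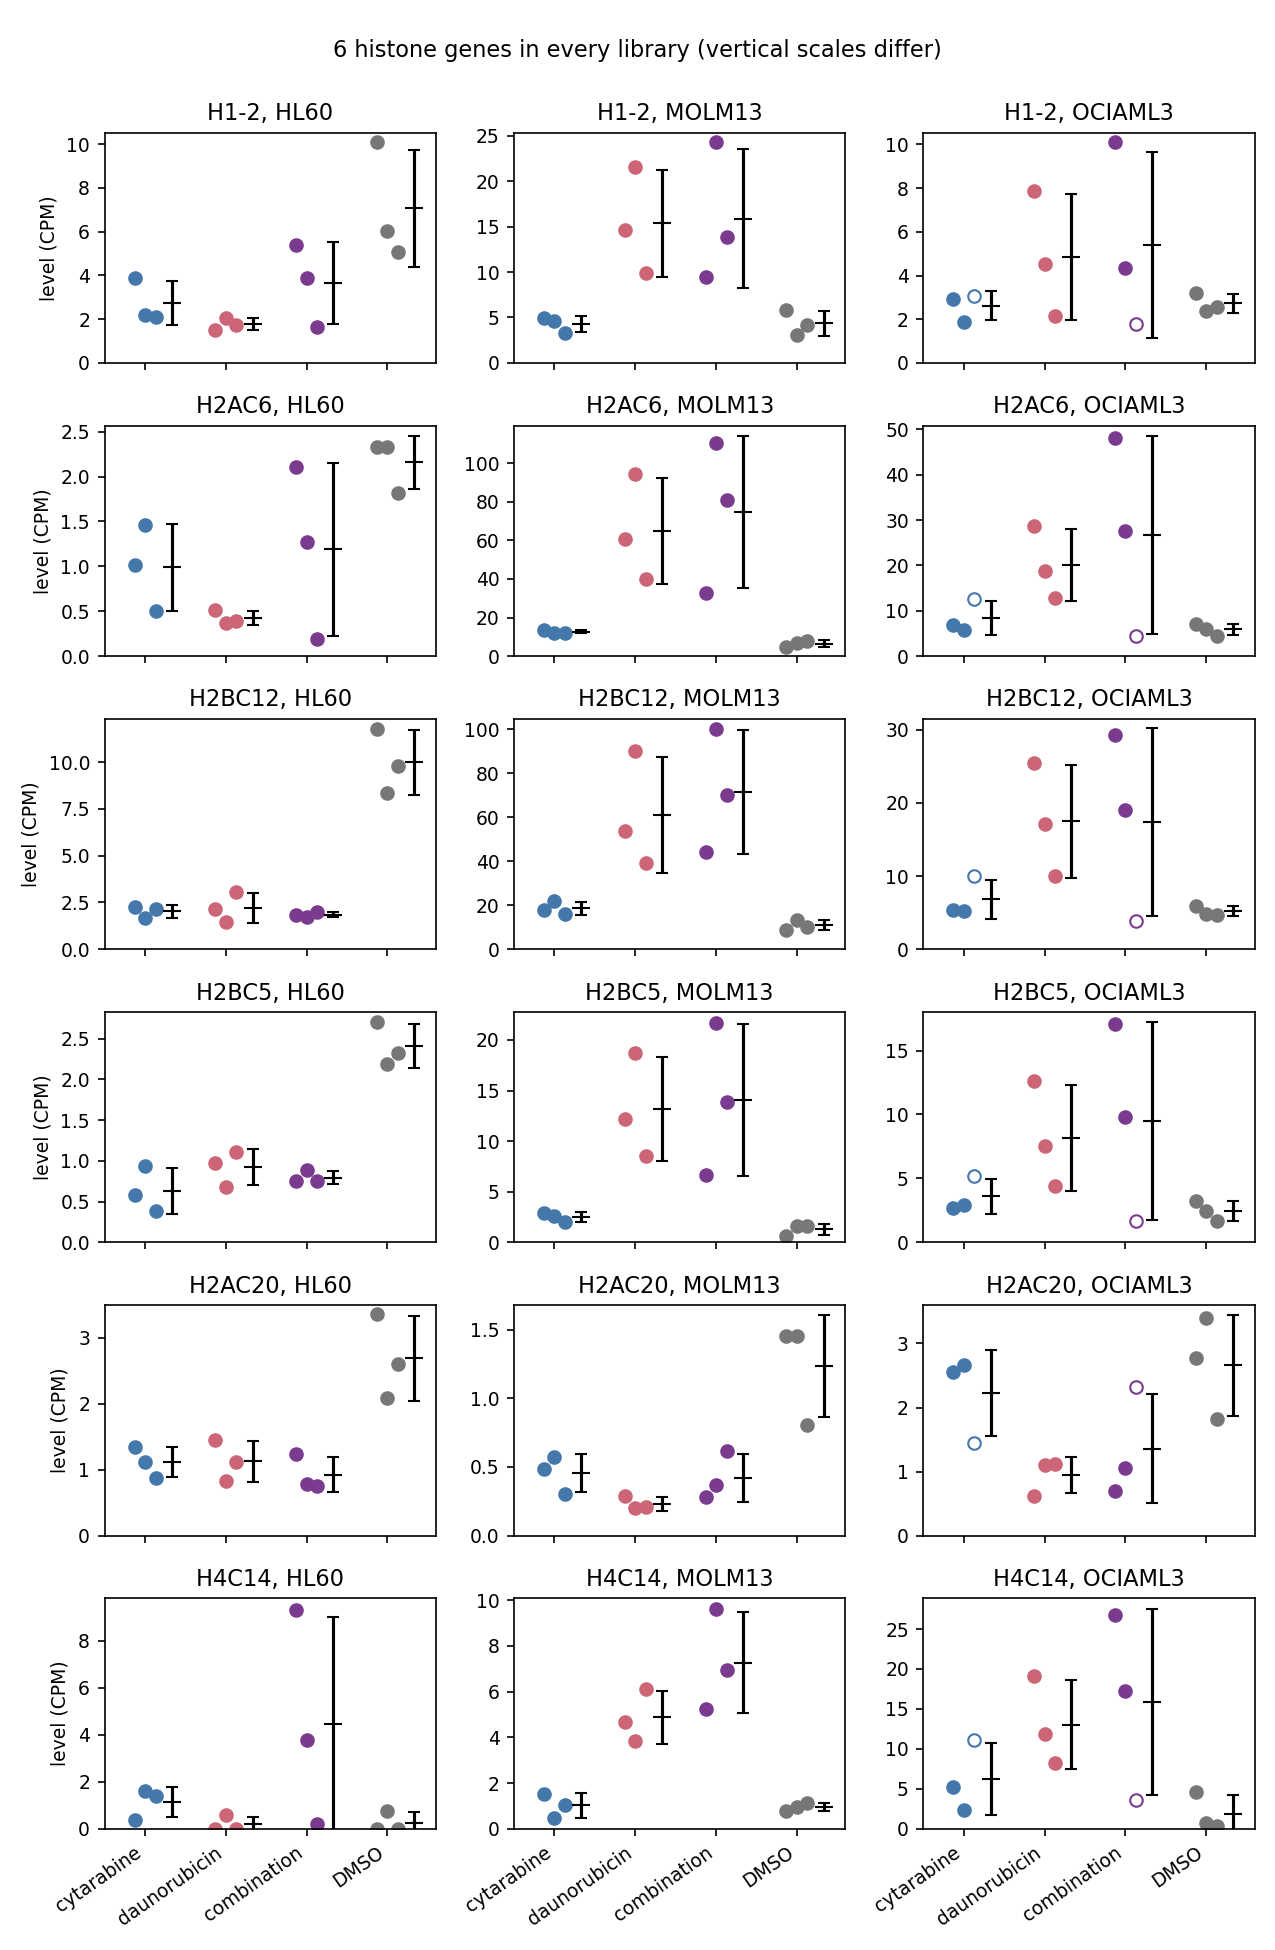
Levels of H1-2, H2AC6, H2BC12, H2BC5, H2AC20 and H4C14 in each library (CPM), with cytarabine, daunorubicin, combination and DMSO from left to right in each line; points are libraries, black bars the mean ± SD of 3 libraries, and open circles the OCIAML3 libraries that stood apart. H2BC12 stays at or below 3.05 CPM in every treated HL60 library and reaches 100.1 CPM in a MOLM13 combination library, while H2AC20 is below DMSO in every treated library of HL60 and MOLM13; vertical scales differ between panels.

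Among the H3 genes, which encode the core histone that pairs with H4, H3C10 had the most reads. In MOLM13 it was at 1.79, 0.981 and 1.43 CPM with cytarabine, 6.57, 8.24 and 5.70 CPM with daunorubicin and 5.86, 6.87 and 7.62 CPM with the combination, against 1.45, 1.02 and 1.75 CPM in DMSO. The cytarabine libraries overlapped DMSO, and the daunorubicin and combination libraries did not, with rises of 2.28 ± 0.26 (edgeR adjusted p = 3.92e-05) and 2.27 ± 0.26 (edgeR adjusted p = 4.29e-05). In HL60, H3C10 was at 0.293, 0.498 and 0.263 CPM with cytarabine, 0.326, 0.255 and 0.394 CPM with daunorubicin and 0.588, 0.557 and 0.157 CPM with the combination, against 0.840, 0.765 and 0.446 CPM in DMSO, and was called in no comparison. In OCIAML3 it was at 2.98, 1.44 and 0.839 CPM with daunorubicin and 3.18, 1.73 and 0.221 CPM with the combination, against 0.716, 0.679 and 0.564 CPM in DMSO. It gave 1.42 and 1.36 with all libraries (edgeR adjusted p = 0.212 and 0.263), and without the 2 libraries it rose with the combination (1.89 ± 0.52, edgeR adjusted p = 0.0152) and gave 1.41 ± 0.49 with daunorubicin (edgeR adjusted p = 0.0509). H3C6 was a MOLM13 gene in these data, at 1.49, 1.66 and 1.28 CPM with cytarabine, 6.06, 7.41 and 3.69 CPM with daunorubicin and 4.65, 7.60 and 7.55 CPM with the combination, against 0.621, 0.955 and 0.706 CPM in DMSO. It rose by 2.90 ± 0.31 (edgeR adjusted p = 2.61e-05) and 3.11 ± 0.31 (edgeR adjusted p = 2.17e-05), was at 0 in all 12 HL60 libraries, and reached at most 0.173 CPM in OCIAML3, where it was not tested. The stem-loop in the shortest transcript of H3C6 is also one that no other member had. With daunorubicin in MOLM13, H3C6 averaged 5.72 CPM and 2.71 TPM, against 0.196 CPM and 0.781 TPM for H3C1. Its lower TPM per CPM means that its reads were assigned largely to longer transcripts.

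Among the H4 genes, H4C14 was the one member called higher in HL60. With the combination it was at 9.33, 3.77 and 0.220 CPM there, with cytarabine at 0.391, 1.59 and 1.40 CPM and with daunorubicin at 0, 0.568 and 0 CPM, against 0, 0.765 and 0 CPM in DMSO. The combination rise was 4.08 ± 1.38 (edgeR adjusted p = 0.0234), although one of its libraries lay inside the DMSO range. In MOLM13, H4C14 was at 1.54, 0.463 and 1.05 CPM with cytarabine, 4.65, 3.84 and 6.12 CPM with daunorubicin and 5.24, 9.62 and 6.94 CPM with the combination, against 0.758, 0.955 and 1.14 CPM in DMSO. It rose by 2.35 ± 0.39 (edgeR adjusted p = 0.000426) and 2.92 ± 0.39 (edgeR adjusted p = 0.000106) with daunorubicin and the combination. OCIAML3 libraries held it at 5.19, 2.31 and 11.1 CPM with cytarabine, 19.1, 11.8 and 8.25 CPM with daunorubicin and 26.7, 17.2 and 3.58 CPM with the combination, against 4.62, 0.749 and 0.299 CPM in DMSO. Daunorubicin and the combination gave 2.81 and 3.08 with all libraries (edgeR adjusted p = 0.124 and 0.209). With those libraries left out it rose by 2.82 ± 0.72 (edgeR adjusted p = 0.0161) and 3.56 ± 0.77 (edgeR adjusted p = 0.00466). H4C14 was thus the one member called higher with the combination in all lines, and H2AC20 the one called lower in all, for OCIAML3 without the 2 libraries.

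Reads of H4C14 could not be held apart from those of H4C15, since both have the same coding sequence. H4C15 was at 1.43, 6.25 and 4.77 CPM with the combination in MOLM13, against 0.690, 0.461 and 0.370 CPM in DMSO (3.02 ± 1.02, edgeR adjusted p = 0.0263), with one daunorubicin library at 0 beside 2.83 and 6.26 CPM (2.58 ± 1.02, edgeR adjusted p = 0.0514). The sum of both genes in HL60 was 12.5, 9.73 and 4.15 CPM with the combination, against 1.95, 3.27 and 3.43 CPM in DMSO, without overlap and with a log2 ratio of 1.61, against 4.12 for H4C14 alone. Their summed log2 ratios were 2.44 and 2.97 with daunorubicin and the combination in MOLM13, and 1.77 and 1.95 in OCIAML3, where the combination gave 2.44 without the 2 libraries. The other pairs with identical coding sequences were H2AC18 with H2AC19, H3C14 with H3C15 and H4C11 with H4C12. H2AC19 was at 0 in all but 1 library. The sum of H4C11 and H4C12 fell outside the DMSO range of HL60 with every treatment, at 2.12, 1.34 and 1.23 CPM with cytarabine, 2.83, 2.61 and 2.19 CPM with daunorubicin and 2.14, 1.93 and 1.26 CPM with the combination, against 8.63, 5.36 and 5.94 CPM in DMSO.

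For H3C14 and H3C15 the split did decide the calls. In OCIAML3 the combination libraries held H3C14 at 1.98 and 1.30 CPM, against 0 in DMSO, and H3C15 at 0 in both, against 0.423, 0.983 and 1.56 CPM in DMSO. With 3 counts over the group taken as the floor, H3C14 was at least 55.1-fold higher and H3C15 at least 24.1-fold lower without the 2 libraries. The sum of both genes was 1.98 and 1.30 CPM in these combination libraries, against 0.423, 0.983 and 1.56 CPM in DMSO, which overlapped. In HL60 daunorubicin H2AC25 had 0 counts, against 56 in DMSO, which makes it at least 20.1-fold lower.

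The difference between lines was tested gene by gene as an interaction over all 36 libraries, for 50 members. The count filter ran over all 36 libraries, so the 50 include members with few or no reads in 1 of the lines compared. Within the single-line fits, 32 members passed the filter in both MOLM13 and HL60, and 26 in all lines. The daunorubicin effect in MOLM13 exceeded that in HL60 for 22 members (median difference 2.59 over the tested members), the combination effect for 19 (2.33) and the cytarabine effect for 5 (1.48), against 2.31%, 3.21% and 0.625% of all 19053 genes in that direction, and no member differed the other way (edgeR), where 5.90%, 10.4% and 3.37% of all genes did. With daunorubicin the largest called difference among members with reads in every group was for H2AC6, at 5.62 ± 0.97 (edgeR adjusted p = 0.000198), and that of H2BC12 was 4.62 ± 0.66 with daunorubicin (edgeR adjusted p = 2.33e-05), 5.06 ± 0.66 with the combination (edgeR adjusted p = 1.57e-06) and 3.02 ± 0.65 with cytarabine (edgeR adjusted p = 0.00315). The effects in OCIAML3 exceeded those in HL60 for 9, 11 and 5 members in the same order of treatments, against 0.388%, 2.54% and 1.47% of all genes, and were exceeded for none, against 2.14%, 9.33% and 8.52%, with H2BC12 at 3.95, 4.16 and 2.66. Without the 2 libraries these counts were 11, 13 and 6, against 0.562%, 2.40% and 1.68% of all genes. Between MOLM13 and OCIAML3 1 member was called with daunorubicin, H2AC7, higher in MOLM13, against 1.52% of all genes higher and 1.76% lower, and 0 by edgeR with the combination or cytarabine, against 1.64% and 1.34% higher and 2.04% and 0.294% lower, with 6 and 7 of the 50 members at an unadjusted p under 0.05, against 26.7% and 20.5% of all genes, and, for the combination, 1 by DESeq2, against 4.64%. The H2AC7 call rests on a group without reads, since OCIAML3 daunorubicin held 0 counts of it, against 19 in DMSO. The median differences, 0.78, 0.83 and 0.30 with daunorubicin, the combination and cytarabine, were above 0, so the missing calls do not show that these lines responded alike.

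Some members were called in opposite directions in different lines. Of 32 members tested in both MOLM13 and HL60, daunorubicin raised 15 in MOLM13 and lowered 14 in HL60, and 8 were in both lists, against 9.33%, 0.521% and 0.0705% of all 14192 genes tested in both lines. These were H1-2, H2AC6, H2AC13, H2AC18, H2BC4, H2BC5, H2BC12 and H2BC21. H2AC20 and H3C2 were lower in both lines. Of 33 members tested in MOLM13 and OCIAML3, the 7 that daunorubicin raised in OCIAML3 without the 2 libraries were all among the 19 it raised in MOLM13, and for the combination all 14 raised in OCIAML3 were among 21 raised in MOLM13. Of all 14964 genes tested in both lines, 1.94% were raised in both by daunorubicin, with 3.11% raised in OCIAML3 and 10.3% in MOLM13, and 3.01% by the combination, with 5.12% and 10.7%. With the combination 5 members, against 0.120% of all genes, were higher in MOLM13 and lower in HL60, H2AC11, H2AC13, H2BC4, H2BC5 and H2BC12.

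The promoter classes described above did not divide the HL60 calls evenly. Daunorubicin lowered 16 of the 25 tested members with CCAAT in the window in HL60 and none of the 7 without it, and the median log2 fold change was -1.99 with CCAAT and -1.11 without. Of all HL60 genes tested 0.538% were lower with daunorubicin, so none of 7 is near the background. Since CCAAT was in 100% of the H1, H2A, H2B and H3 promoters and 23.1% of the H4 promoters, this split and the split by type are largely the same. The H4 gene that daunorubicin lowered, H4C9, was among the 16 with CCAAT. In MOLM13 daunorubicin raised 19 of 32 members with CCAAT and 3 of 8 without, with medians of 1.88 and 1.99. Of all MOLM13 genes tested, 11.3% were higher with daunorubicin. By position in HL60, cytarabine lowered 12 of 27 tested members on chromosome 6 (median -1.37) and 2 of 9 on chromosome 1 (median -0.40), daunorubicin 11 (median -1.73) and 5 (median -1.22), and the combination 11 (median -1.48) and 2 (median 0.26), where it raised H4C14. Of all HL60 genes tested, 3.12%, 0.538% and 6.29% were lower in the same order of treatments. In MOLM13 daunorubicin raised 18 of 32 on chromosome 6 and 4 of 9 on chromosome 1, with medians of 1.78 and 2.00. The member on chromosome 12, H4C16, was called higher in MOLM13 with the combination, at 1.51.

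Of the members, 16 have more than 1 annotated transcript, and reads outside the shortest single-exon transcript took a share that differed between groups. In HL60 this share was 20.6%, 22.5% and 12.2% in cytarabine, 9.82%, 17.7% and 5.79% in daunorubicin and 30.9%, 28.8% and 20.5% in the combination, against 7.20%, 7.96% and 7.27% in DMSO. In MOLM13 it was 34.4%, 32.8% and 32.8% in cytarabine, 45.4%, 45.2% and 45.5% in daunorubicin and 39.5%, 47.3% and 45.6% in the combination, against 19.4%, 28.2% and 35.4% in DMSO. In OCIAML3 it was 32.3%, 30.4% and 39.6% in cytarabine, 40.8%, 38.4% and 39.7% in daunorubicin and 41.6%, 44.0% and 25.5% in the combination, against 30.4%, 26.8% and 25.9% in DMSO. The share was above the DMSO range in all daunorubicin and combination libraries of MOLM13 and in all cytarabine and combination libraries of HL60. In absolute level both kinds moved in MOLM13, where the short transcripts averaged 129 CPM with daunorubicin and 149 CPM with the combination, against 36.1 CPM in DMSO, and the other transcripts 107 and 123 CPM, against 13.8 CPM. In HL60 the short transcripts averaged 23.2, 19.5 and 28.8 CPM with cytarabine, daunorubicin and the combination, against 64.7 CPM in DMSO, and the others 5.39, 2.41 and 11.4 CPM, against 5.20 CPM. The lower HL60 sum therefore lay mainly in reads assigned to the shortest single-exon transcripts. Whether these RNAs ended at the stem-loop was not tested.

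**Figure D3:**
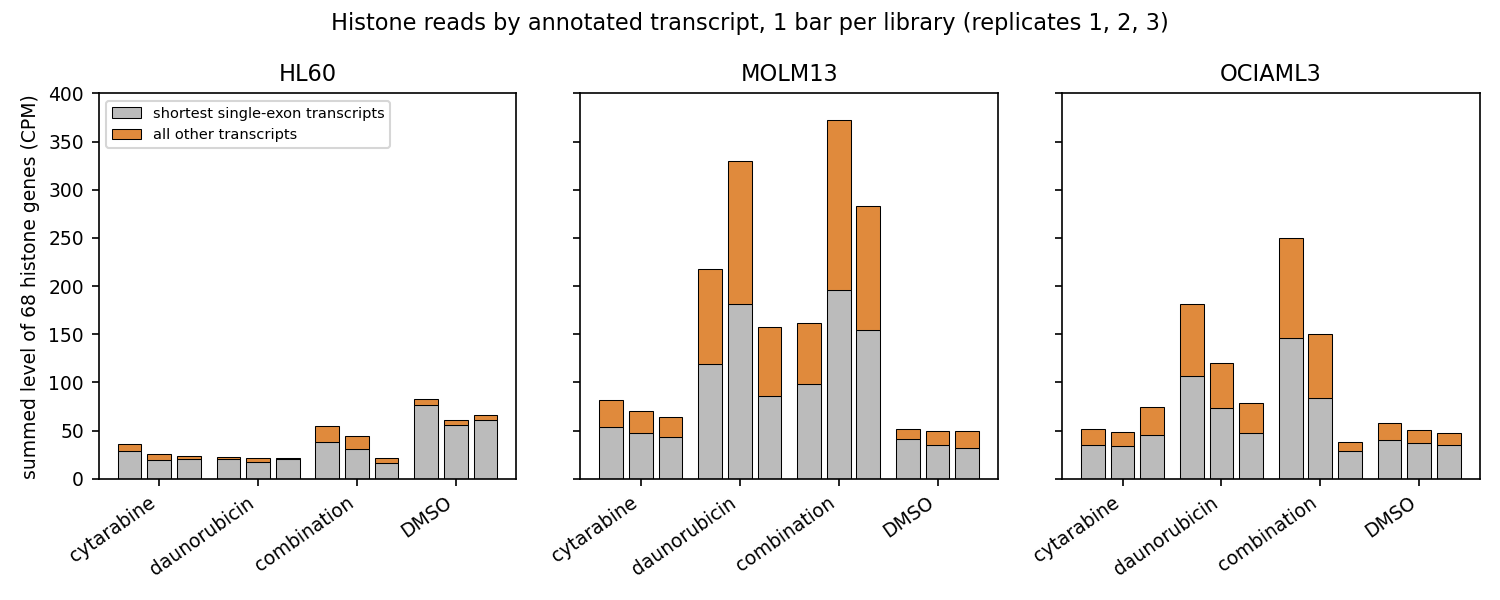
Level (CPM) of the shortest single-exon transcripts (grey) and of all other annotated transcripts (orange) of the 68 members, stacked, in 1 bar per library, for cytarabine, daunorubicin, combination and DMSO in each line. In HL60 the short transcripts average 19.5 to 28.8 CPM in treated cells against 64.7 CPM in DMSO, while in MOLM13 both kinds are higher with daunorubicin and the combination than in DMSO.

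H2AC6 shows how the transcripts of 1 gene moved together in MOLM13. Its single-exon transcript of 519 bases averaged 11.9 CPM with daunorubicin, against 0.982 CPM in DMSO. A transcript of 2 exons and 1668 bases, annotated as a target of nonsense-mediated decay, averaged 36.5 CPM with daunorubicin and 41.6 CPM with the combination, against 3.45 CPM in DMSO. For H2BC5 the single-exon transcript averaged 2.49 and 2.64 CPM with daunorubicin and the combination in MOLM13, against 0.507 CPM in DMSO, and the spliced one 10.7 and 11.5 CPM, against 0.776 CPM. All H4C14 reads were assigned to 2 spliced transcripts annotated for nonsense-mediated decay, and most H3C10 reads to a single-exon transcript of 1250 bases. Members with a single annotated transcript were also raised in MOLM13, with 12 of 28 higher and 4 lower with daunorubicin (median 0.93), beside 10 of 14 higher and none lower among members with several (median 2.31). Of all MOLM13 genes tested, 11.3% were higher and 5.71% lower with daunorubicin.

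In MOLM13 the called genes of the wider pathway were lower, where the histone genes were mostly higher. The list for transcription and 3′ processing of histone mRNA held 20 genes, 19 of them tested. In MOLM13 daunorubicin and the combination each lowered 6 of them and raised none, E2F1, an S-phase transcription factor, at -2.28 and -2.43, SLBP, CCNE1, CCNE2, CDK2 and SSRP1, with list medians of -0.73 and -0.62 beside the MOLM13 background of 5.71% and 5.61%. SLBP, the stem-loop binding protein, was at 50.4, 40.0 and 60.7 CPM with daunorubicin and 75.8, 42.8 and 43.0 CPM with the combination, against 159, 151 and 152 CPM in DMSO, and fell by 1.61 (SE 0.21, edgeR adjusted p = 0.0001) and 1.51 (SE 0.21, edgeR adjusted p = 0.000155). The direction of SLBP in MOLM13 was thus opposite to that of the histone sum. NPAT gave -0.68 and -0.62 there and was not called. In HL60 SLBP gave -0.10, -0.09 and -0.19 with cytarabine, daunorubicin and the combination and was not called, and of the list cytarabine raised CCNE2 (2.13), daunorubicin none, and the combination CCNE1 (1.06) and CCNE2 (2.35). Of all HL60 genes tested, 13.7%, 6.76% and 17.0% were higher in the same order of treatments. In OCIAML3 none of these lists held a call with all libraries, and without the 2 libraries daunorubicin lowered CCNE2, and the combination CCNE2 and SSRP1. Without the 2, 0.539% and 1.96% of all OCIAML3 genes tested were lower with these treatments. Of 8 tested decay genes, ERI1, a nuclease that trims histone mRNA ends, was lower in MOLM13 at -1.07 with daunorubicin and -1.11 with the combination, and MTREX was lower in HL60 at -1.03 with the combination.

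The list of 20 S-phase and replication genes was set beside the members because histone mRNA is normally made while DNA is copied. In MOLM13 daunorubicin lowered 18 of them and the combination 19, with medians of -2.09 and -2.14, and cytarabine none, with a median of -0.19 (edgeR). Of all MOLM13 genes tested, 5.71%, 5.61% and 1.03% were lower in the same order of treatments. MCM2, a helicase subunit, was at 81.1, 41.5 and 124 CPM with daunorubicin and 148, 33.7 and 44.8 CPM with the combination in MOLM13, against 388, 351 and 376 CPM in DMSO. Within the daunorubicin and the combination group of MOLM13, the library in which these genes were lowest was the one in which the histone sum was highest. Daunorubicin replicate 2, at 330.2 CPM of histone reads, had 860.3 CPM over the S-phase list, and combination replicate 2, at 372 CPM, had 801 CPM, against 5707 to 6183 CPM over the list in DMSO. In HL60 daunorubicin and cytarabine called 0 of the 20 by edgeR, with medians of 0.14 and 0.05, and the combination raised RRM2, a subunit of ribonucleotide reductase (1.25 ± 0.11, edgeR adjusted p = 1.9e-06), with a median of 0.03. Of all HL60 genes tested, 0.538% were lower and 6.76% higher with daunorubicin, so its 0 of 20 is near the background. The shares were 3.12% lower and 13.7% higher with cytarabine, and 6.29% and 17.0% with the combination. In OCIAML3 without the 2 libraries daunorubicin lowered 1 and the combination 3, including RRM2 at -1.08 and -1.47, with medians of -0.56 and -0.93, while with all libraries none was called and the medians were -0.56 and -0.47. Without the 2 libraries, 0.539% and 1.96% of all OCIAML3 genes tested were lower with daunorubicin and the combination.

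**Figure D4:**
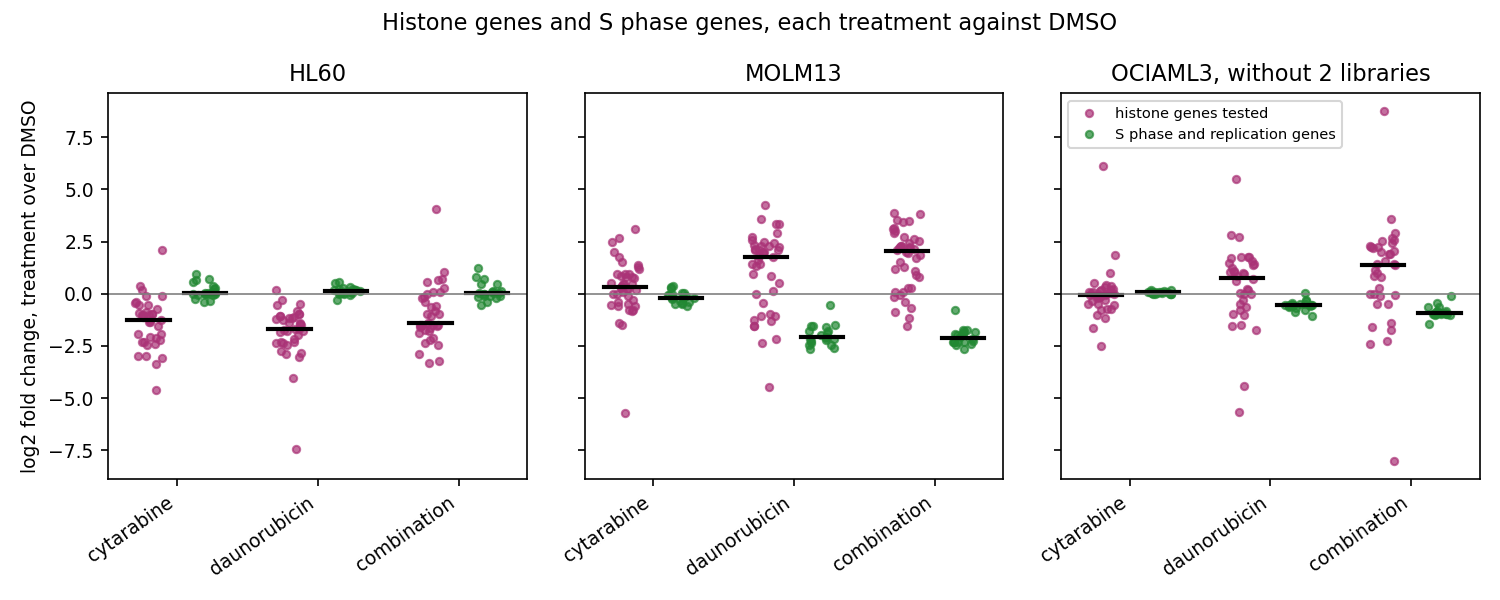
Log2 fold changes of the tested histone genes and of the 20 S-phase and replication genes in each of the 9 comparisons with DMSO, with OCIAML3 shown without the 2 libraries that stood apart; points are genes and black lines the medians of each list. In MOLM13 with daunorubicin the medians are 1.78 for the histone genes and -2.09 for the S-phase genes, and in HL60 they are -1.69 and 0.14.

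Replication-independent histones, most of which are made through the cell cycle from polyadenylated mRNA, passed the filter for 8 genes of HL60, 10 of MOLM13 and 11 of OCIAML3. In MOLM13 H2AZ1 gave -1.98 with daunorubicin and -2.07 with the combination, H2AX gave -1.63 and -1.56, and CENPA was lower too, all called. In HL60 H1-10 was called lower with all treatments, at -1.31, -1.45 and -1.31. Of 7 tested chaperones of histones, NASP, CHAF1A and CHAF1B were called lower in MOLM13 with daunorubicin and the combination, and CHAF1B higher in HL60 with the combination, at 1.01. Of all MOLM13 genes tested, 5.71% and 5.61% were lower with daunorubicin and the combination. In HL60 3.12%, 0.538% and 6.29% of all genes were lower with cytarabine, daunorubicin and the combination. With the HL60 combination 17.0% were higher, so the CHAF1B call there is near the background.

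Other measures moved with some of these results. Among 7 tested RNAs without a poly(A) tail, chosen because histone mRNA shares that end, SNORD3A and RN7SK were called higher in MOLM13 with all treatments and in HL60 with the combination, and SNORD3A also in HL60 with cytarabine and in OCIAML3 with daunorubicin without the 2 libraries. The summed level of this list overlapped DMSO in HL60 and MOLM13, at 733 to 783, 861 to 1389 and 884 to 2145 CPM with cytarabine, daunorubicin and the combination in HL60, against 550.0 to 2457 CPM in DMSO, and at 258 to 362, 220.0 to 368 and 237 to 378 CPM in MOLM13, against 155 to 394 CPM. In OCIAML3, with all libraries, it was 319 to 394, 318 to 359 and 219 to 380.2 CPM, against 305 to 314 CPM in DMSO. There it lay above DMSO with both single drugs and overlapped DMSO with the combination. Among markers of other cell types, COL1A1 and CD3E were called higher with each treatment in HL60. COL1A1 was at 1.37 to 2.28 CPM with cytarabine, 0.502 to 1.27 CPM with daunorubicin and 2.39 to 2.58 CPM with the combination there, against 0.0382 to 0.243 CPM in DMSO, and CD3E at 0.560 to 1.21, 0.108 to 0.580 and 0.692 to 1.55 CPM in the same order of treatments, against 0 to 0.0696 CPM. HBB, ALB and EPCAM did not exceed 0.0673 CPM in any library. The 10 AML markers summed to 1783 to 2236, 3439 to 5024 and 1338 to 1594 CPM with cytarabine, daunorubicin and the combination in HL60, against 4096 to 4917 CPM in DMSO, so the cytarabine and combination libraries lay below it. In MOLM13 the sums were 2987 to 3049.8, 3690.3 to 4219.7 and 3828 to 4316 CPM, against 3338 to 3421 CPM, below DMSO with cytarabine and above it in the other treatments, and in OCIAML3 2171 to 2431 CPM over the treatments, against 2205 to 2368 CPM. MPO, the myeloperoxidase of granules, was called lower in HL60 with cytarabine and the combination (-1.48 and -2.40) and in MOLM13 with daunorubicin and the combination (-1.28 and -1.45), and the receptor kinase FLT3 was called higher in HL60 with all treatments. The part of these measures in the histone results was not tested.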

How the data were processed

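Total RNA libraries, paired-end and unstranded, were sequenced for the authors by a service company and quantified by them with Salmon 1.8.0 after FastQC 0.11.9. Of the 252199 transcripts listed, 235378 were matched to GENCODE v44 (GRCh38), and the other 16821, with 3.99 to 4.52% of the counts, were left out. The annotation release the authors used is not given in the sources used here. The deposited values are estimated counts and TPM per transcript. Both were added up over the transcripts of a gene, and the summed counts were rounded to whole numbers.

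Genes were tested with edgeR 4.0.16 in R 4.3.3 (quasi-likelihood, legacy mode, TMM, filterByExpr with a minimum count of 10 and a total of 15), on the 12 libraries of each line and, for interactions, on all 36. Salmon shares reads among near-identical copies, so counts of single members are less certain than sums. Alternatives were DESeq2 1.42.0, other normalizations and filters, length offsets, leaving out libraries, and the replicate number as a block. In HL60, all 18 correlations of same-numbered samples were above 0.1 (0.105 to 0.382), so the numbers were taken as pairs there, from the data alone; the reported tests carry no block.

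The 68 members and the 8 lists (transcription and 3′ processing, decay, replication-independent histones, chaperones, S phase, RNA without poly(A), AML markers, other cell markers) were chosen with earlier results of these data known. Values in every library were given for the 2 members of each type with the most reads, for up to 3 called members with the largest change in each direction per comparison at 1 CPM or more, and members called in at least 4 of 9 comparisons were named. Some genes of these lists are not reported here. Further members were named where a count of calls or a pair of copies involved them. Python 3.11.15 was used for tables and matplotlib 3.10.9 for figures.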

Additional observations from a re-analysis of the deposited data

Results flagged for a closer look

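The effects of the drugs on the histone genes differed between the lines by the interaction test of edgeR with Benjamini-Hochberg adjustment over all genes. The 50 members tested include some with few or no reads in 1 of the lines compared. For daunorubicin 22 members differed between MOLM13 and HL60, 9 between OCIAML3 and HL60 and 1 (H2AC7) between MOLM13 and OCIAML3, against 2.31%, 0.388% and 1.52% of all genes higher in the line named first, so the 1 of 50 members is near the background. That call also rests on a group without reads, as H2AC7 had 0 counts in OCIAML3 daunorubicin, against 19 in DMSO. For the combination 19 members differed between MOLM13 and HL60 and 11 between OCIAML3 and HL60, against 3.21% and 2.54% of all genes, and for cytarabine 5 and 5, against 0.625% and 1.47%. In each of these the effect was higher in the line named first.

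Among the members with the most reads of their type, the daunorubicin effect in MOLM13 minus that in HL60 was 3.75 on the log2 scale for H1-2 (edgeR adjusted p = 0.000519), 5.62 for H2AC6 (edgeR adjusted p = 0.000198), 3.16 for H2AC18 (edgeR adjusted p = 0.00139), 4.62 for H2BC12 (edgeR adjusted p = 2.33e-05), 4.69 for H2BC5 (edgeR adjusted p = 0.000192), 3.29 for H3C10 (edgeR adjusted p = 0.00495) and 3.63 for H4C15 (edgeR adjusted p = 0.0353). H4C15 shares its coding sequence with H4C14, so its own difference depends on how Salmon divided their reads.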

How the results depend on the processing

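With a filter of at least 1 CPM in 3 libraries the counts of called members were 7 for HL60 cytarabine, 10 for HL60 daunorubicin, 7 for the HL60 combination and 1 for MOLM13 cytarabine. MOLM13 cytarabine also gave 4 without the fold threshold, 5 with library totals in place of TMM and 1 with edgeR's newer quasi-likelihood. OCIAML3 daunorubicin gave 1 with DESeq2 and 4 with all 36 libraries in 1 fit. Without the 2 OCIAML3 libraries, counts were 10 for daunorubicin, 20 for the combination and 10 for daunorubicin against cytarabine, with the replicate block also 14 and 18 for the first 2 comparisons, and with DESeq2 14 and 18. HL60 daunorubicin against cytarabine gave 1 with DESeq2. For interactions, the combination difference of MOLM13 and OCIAML3 gave 1 with DESeq2, with the replicate block and without the 2 libraries, the cytarabine difference of MOLM13 and HL60 gave 2 with DESeq2, the cytarabine difference of MOLM13 and OCIAML3 gave 1 with the replicate block, and the daunorubicin difference of MOLM13 and OCIAML3 gave 0 with DESeq2. The cause of these changes was not tested, except that the stricter filter tests fewer members.

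Leaving out 1 library gave 8 to 17 for HL60 daunorubicin, 0 to 4 for MOLM13 cytarabine, 0 to 11 for OCIAML3 daunorubicin and 0 to 20 for the OCIAML3 combination, where the highest counts came without combination replicate 3, and 0 to 1 for HL60 daunorubicin against cytarabine. Without the 2 OCIAML3 libraries and 1 more, the ranges were 10 to 15, 10 to 22 and, for daunorubicin against cytarabine, 0 to 14. For interactions the ranges were 0 to 4 (combination, MOLM13 and OCIAML3), 6 to 13 (combination, OCIAML3 and HL60), 2 to 7 (cytarabine, MOLM13 and HL60), 3 to 6 (cytarabine, OCIAML3 and HL60), 0 to 2 (daunorubicin, MOLM13 and OCIAML3) and 5 to 12 (daunorubicin, OCIAML3 and HL60). The other ranges stayed within 1.5 times of the reported counts, such as 21 to 27 for MOLM13 daunorubicin and 12 to 16 for HL60 cytarabine.

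With the replicate block in HL60 the counts were 17, 21 and 17 for cytarabine, daunorubicin and the combination. The gained calls included H2AC6 with cytarabine and H1-4 with daunorubicin and the combination, and none was lost, while the combination difference of OCIAML3 and HL60 went to 9, without H2AC11 and H2BC11. In MOLM13 and OCIAML3 the correlations of same-numbered samples ran from -0.0115 to 0.390 and from -0.283 to 0.484, with medians of 0.0606 and 0.0524. The numbers were not taken as pairs there, but these values cannot exclude pairing. The block gave 3, 25 and 25 calls in MOLM13 and 0 in OCIAML3. Of 57 calls of members given by library, 13 were lost when some library was left out, 5 with a length offset and 4 with all libraries in 1 fit, and none reversed. Of 552 alternative values of the summed levels, 15 moved by more than the spread and 17 changed sign, each from a ratio within its spread. Of these 11 were for OCIAML3 cytarabine, where the sum of all members was -0.06 without cytarabine replicate 3, and the others were the H4 sum of the HL60 combination (0.24 with library totals, 0.30 without combination replicate 3, 0.04 without DMSO replicate 1) and the H1 sums of MOLM13 cytarabine (0.12 without DMSO replicate 1), OCIAML3 daunorubicin (-0.12 without daunorubicin replicate 1) and the OCIAML3 combination (-0.11 without combination replicate 1). Low counts limit single members, since 20 of 68 passed the filter in no line.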
